A study of Mus musculus with 10 samples.

Results

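Prdm16, Prdm2, Prdm4, Prdm10 and Prdm15 are 5 genes of the PRDM family of zinc-finger regulators, and their RNA levels were measured in mouse cardiomyocytes of the atrium and of the ventricle. The 5 genes were found by symbol among the 25239 genes with a value in every library. They were chosen by their chamber values, since Prdm16 is among the genes most strongly biased to the ventricle, so the chamber values of these genes are given as a description, with no test. RNA-seq was run on 5 atrial and 5 ventricular libraries of cardiomyocytes, all labelled wild type and numbered as replicates 1 to 5 in each chamber. Strain, age and sex, and whether the libraries come from separate animals or pools, are not given in the labels, so the spread between libraries may be in part technical. Where p-values are printed, they measure only the spread between these libraries.

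PRDM proteins carry a PR domain, a relative of the SET domain of histone methyltransferases, together with zinc fingers that in most members bind DNA. Some of them, such as PRDM2, PRDM9, PRDM16 and its nearest relative MECOM (PRDM3), have been described as methyltransferases, while others act mainly by recruiting further enzymes. PRDM16 is best known for setting the brown-fat fate over the muscle fate, and in the heart for its role in the compact myocardium, the dense outer wall of the ventricle. It binds partners such as CtBP corepressors, EHMT1, C/EBP-beta, PPAR-gamma coactivators and SMAD proteins.

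The sequence just before the first listed start of each gene is shown to place the 5 genes by the kind of promoter they carry, which bears on how widely a gene tends to be used. The 250 bases before the start are from RefSeq's GRCm38.p6 table, read 5′ to 3′ on the strand of the gene, and capitals mark CpG dinucleotides. No window is shown for Prdm2. The windows are chr4:154636874-154637123 (minus strand) for Prdm16, chr10:85916987-85917236 (minus) for Prdm4, chr9:31280299-31280548 (plus) for Prdm10 and chr16:97851851-97852100 (minus) for Prdm15.
Prdm16: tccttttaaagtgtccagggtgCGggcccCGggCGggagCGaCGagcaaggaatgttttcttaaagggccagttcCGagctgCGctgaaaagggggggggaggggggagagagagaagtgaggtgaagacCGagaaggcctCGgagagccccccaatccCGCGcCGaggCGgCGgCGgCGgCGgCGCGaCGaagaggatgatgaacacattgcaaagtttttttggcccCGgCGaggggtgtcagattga
Prdm4: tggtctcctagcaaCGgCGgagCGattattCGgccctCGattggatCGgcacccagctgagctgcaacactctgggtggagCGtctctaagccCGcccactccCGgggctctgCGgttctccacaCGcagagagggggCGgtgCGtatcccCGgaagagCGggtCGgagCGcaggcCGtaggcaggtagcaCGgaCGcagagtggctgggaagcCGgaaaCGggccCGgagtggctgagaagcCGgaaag
Prdm10: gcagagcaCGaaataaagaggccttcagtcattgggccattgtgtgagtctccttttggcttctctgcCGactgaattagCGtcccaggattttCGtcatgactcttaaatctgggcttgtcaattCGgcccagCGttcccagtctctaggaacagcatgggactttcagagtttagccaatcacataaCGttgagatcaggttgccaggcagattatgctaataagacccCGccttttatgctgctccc
Prdm15: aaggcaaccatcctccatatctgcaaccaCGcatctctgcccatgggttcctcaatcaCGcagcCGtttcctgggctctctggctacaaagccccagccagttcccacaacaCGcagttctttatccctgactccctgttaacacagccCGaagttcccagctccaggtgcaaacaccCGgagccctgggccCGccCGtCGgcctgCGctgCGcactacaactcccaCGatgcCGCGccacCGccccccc

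The Prdm16 window held 22 CpG dinucleotides, more than 85.2% of the windows of the 32851 starts in that table, where the median is 6. Prdm4 had 24 (more than 88.0%), Prdm15 had 15 (more than 72.7%) and Prdm10 had 8 (more than 57.0%). GC content was 62.4% for Prdm16, 66.4% for Prdm4, 62.4% for Prdm15 and 48.8% for Prdm10, against a median of 52.4%. The gene with the steep chamber difference and Prdm4, whose chamber means were close, carried windows of much the same CpG count. The letters of 4 short motifs were searched on both strands. A T-box half-site, AGGTGTGA, is in 1.12% of all windows. A GATA site, AGATAA, is in 9.99%. An E-box, CACGTG, is in 6.02%. A TATA box, TATAAA, is in 12.37%. None of the 4 printed windows held any of these strings, which says nothing of binding there or elsewhere. The picture depended on the start: the second listed start had 34 CpG for Prdm4, 30 for Prdm15 (more than 94.1% of windows), and 1 for Prdm10 (more than 7.9%), where the TATA letters were present. These second windows lie inside the annotated span of their genes, and those of Prdm4 and Prdm10 end in the letters cag, as introns do. They need not be promoters, and whether RNA starts there was not tested.

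Values are normalized reads, the count of a gene scaled by its library's DESeq2 size factor in the deposited files. Whole reads recovered from them summed to 3893406 to 12575523 in atrial and 1790402 to 12842635 in ventricular libraries, with the shallowest ones in replicates 1 and 2. Even so, reads fell on the most genes in replicate 1 of each chamber. These were 21576 genes in atrial and 19232 in ventricular replicate 1, against 15950 to 16618 in the remaining libraries. Replicates 1 and 2 also stood apart from replicates 3 to 5 in both chambers by ribosomal RNA, with Rn45s taking 23.1 to 29.8% of reads in the later-numbered set and 0.215 to 0.48% in the first. The chamber labels fitted their markers: all 4 atrial markers (Myl7, Myl4, Sln, Nppa) were higher in atrial cells and all 4 ventricular markers (Myl2, Myl3, Irx4, Hey2) were higher in ventricular cells. The test was limma's, over the 12422 genes whose mean reached 10 normalized reads, and it called 14.7% of them between chambers at an adjusted p of 0.05. Atrial cells had the higher level for 8.12% and ventricular cells for 6.56%. Adding the replicate number as a block called 32.3%, and adding the replicate set (1 and 2, or 3 to 5) as a term 31.8%, against 52.8% with replicates 3 to 5 alone and 5.14% with replicates 1 and 2 alone.

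Prdm16 was close to absent from atrial libraries and readily measured in every ventricular one. Normalized reads in atrial replicates 1 to 5 were 20.7, 4.32, 0, 0 and 0.644, against 152.2, 170.6, 216.3, 198.5 and 200.2 in ventricular replicates 1 to 5. Atrial replicate 1, the library with reads on the most genes (21576), was well above the other 4 atrial libraries. The chambers still did not overlap, which held with ventricular higher for 6.55% of all tested genes. The means were 5.13 ± 8.88 in atrial and 187.5 ± 25.7 in ventricular cells (SD, n = 5 each), 36.6-fold higher in ventricular cells. On the log2(normalized reads + 1) scale the difference, atrial minus ventricular, was -6.03 ± 0.76 (SE), the 3rd most ventricular of all genes tested on that scale. That scale weighs on values near 0, and with 5 added in place of 1 the difference was -4.57. By the fold of means, Irx3 (47.0), Hey2 (43.9) and Myh11 (37.3) stood above Prdm16, as did Myl2 and Irx4. In bulk RNA, fewer cells with the transcript and less transcript per cell cannot be told apart.

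The atrial level rests on few reads. The 5 atrial libraries held 15, 3, 0, 0 and 1 Prdm16 reads, 19 in all, and the 5 ventricular libraries held 44, 70, 349, 297 and 324, which sum to 1084. Exact 95% Poisson intervals, which cover counting error only, ran from 11.6 to 34.1 normalized reads in atrial replicate 1 and from 0.891 to 12.6 in atrial replicate 2. For the 0 reads of atrial replicates 3 and 4 these intervals reached up to 2.1 and 2.18 normalized reads. A less strict limit of 3 reads gave 1.7 and 1.77. In the shallowest ventricular library, replicate 1, the interval was 110.6 to 204.4. Even the upper bound of the highest atrial library thus stayed below the lower bound of that ventricular library. Without atrial replicate 1 the atrial mean was 1.24 ± 2.07 (SD, n = 4), resting on 4 reads, and the log2 difference was -6.77.

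**Figure D1:**
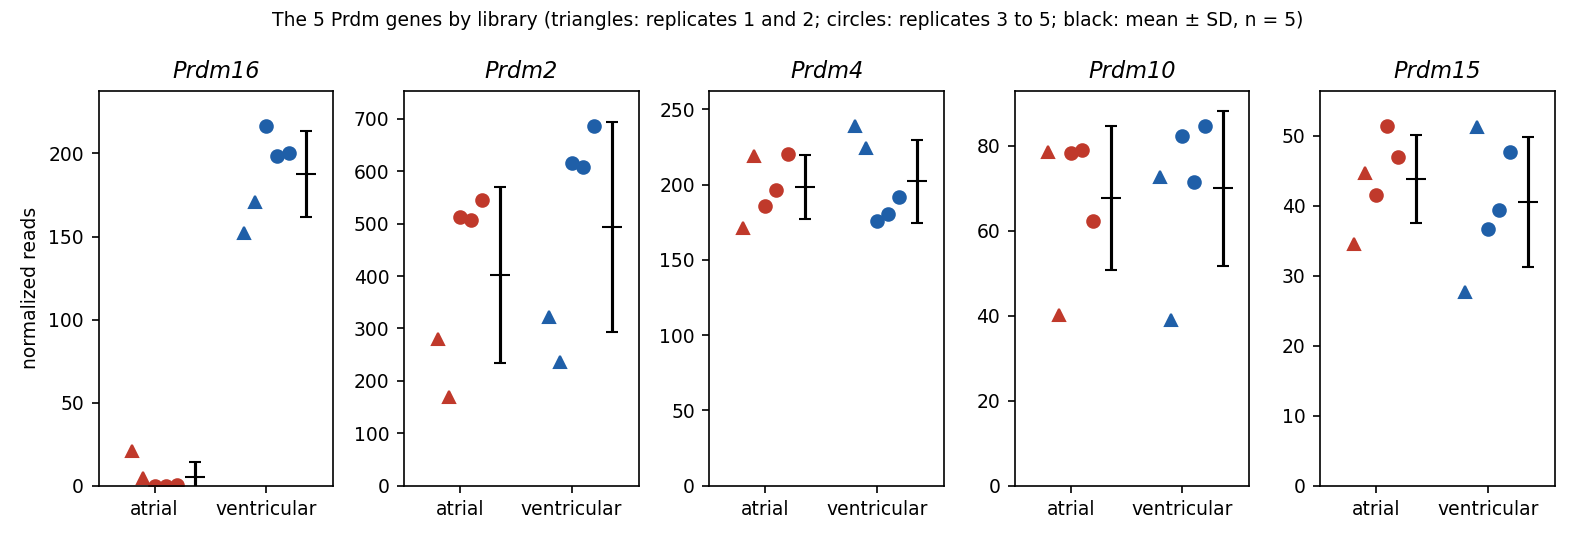
Normalized reads of Prdm16, Prdm2, Prdm4, Prdm10 and Prdm15 (y axes, each from 0) in the 5 atrial and 5 ventricular libraries; triangles are replicates 1 and 2, circles replicates 3 to 5, and black bars the mean ± SD (n = 5), with the lower end of the atrial Prdm16 bar cut at 0. Prdm16 lies at 0 to 20.7 in atrial and 152.2 to 216.3 in ventricular libraries, Prdm2 follows the replicate set in both chambers, and Prdm4, Prdm10 and Prdm15 overlap between chambers.

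The gap between chambers was wider in replicates 3 to 5. There Prdm16 averaged 0.215 in atrial cells, from a single read, and 205.0 in ventricular cells, a log2 difference of -7.45. In replicates 1 and 2 it averaged 12.5 in atrial and 161.4 in ventricular cells, a log2 difference of -3.92. The change of the difference between the sets, the chamber-by-set interaction of a limma fit over all genes, was -3.53 ± 0.70 (SE). It is given as a description, since Prdm16 was chosen on these chamber values, reached the tested mean of 10 through the ventricular libraries and had 1 read in all in atrial replicates 3 to 5. Its size followed the pseudocount, at -4.28 with 0.5 and -1.91 with 5. Averaged over chambers, Prdm16 differed between replicates 3 to 5 and replicates 1 and 2 by -1.42 ± 0.65 on the log2 scale (adjusted p = 0.0869), with a 95% interval from -2.85 to 0.01. That set difference was -1.86 (adjusted p = 0.0422) without ventricular replicate 1 and -1.69 (adjusted p = 0.0375) with equal library totals. The negative sign came from the atrial libraries, which held 19 reads in all. Ventricular values were higher in replicates 3 to 5. The mean of all libraries was 102.6 in replicates 3 to 5 against 87.0 in replicates 1 and 2. The p-values of the set difference are thus no support for a lower Prdm16 level in replicates 3 to 5.

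The atrial share of ventricular genes differed from gene to gene. As a share of its own ventricular mean, Prdm16 stood at 11.0, 2.3, 0, 0 and 0.343% in atrial replicates 1 to 5. Myl2, the regulatory myosin light chain of ventricular muscle, stood at 0.136, 0.0855, 0.0375, 0.0418 and 0.0592% in the same libraries. Irx4, a homeobox factor of ventricular identity, stood at 1.31, 0.229, 0, 0 and 0.102%. Atrial replicate 1 had the highest share of Prdm16, Myl2 and Irx4 alike. Myl3, the essential myosin light chain, ran the other way, at 5.96 to 6.12% in atrial replicates 3 to 5 and 1.09 and 1.51% in atrial replicates 1 and 2. Hey2, a Notch-pathway repressor, was also lowest in atrial replicate 1, at 1.38, 1.44, 2.42, 2.66 and 3.47% in atrial replicates 1 to 5.

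Prdm16 (ENSMUSG00000039410) spans chromosome 4, 154316125 to 154636873 on the minus strand of GRCm38 in GENCODE M21, with 9321 exon bases. A gene on the opposite strand, B230104I21Rik, shares 109 of these exon bases and was not analysed here, and since the strand setting of the counting is not given in the sources used here, its reads cannot be told apart from those of Prdm16. The antisense gene Gm13133 lies over Prdm16 with no shared exon base and held 3 reads over the atrial libraries and 4 over the ventricular ones.

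Prdm2 (RIZ1), a PR-domain methyltransferase of histone H3 lysine 9 and a tumour suppressor, had the highest mean of the 5 genes in both chambers. Its normalized reads in atrial replicates 1 to 5 were 280.0, 168.4, 513.5, 506.5 and 545.1, against 321.8, 236.4, 615.9, 607.4 and 685.7 in ventricular replicates 1 to 5. Means were 402.7 ± 168.3 in atrial and 493.5 ± 200.3 in ventricular cells (SD, n = 5 each), 1.23-fold higher in ventricular cells and well inside the spread. The library of each replicate number was higher in the ventricle in 5 of 5 pairs. Within replicates 3 to 5 the chambers did not overlap (means 521.7 in atrial and 636.4 in ventricular cells), whereas they overlapped within replicates 1 and 2. With so few libraries in a set, a lack of overlap can arise by chance, and its share over all genes is not given. The log2 chamber difference was -0.31 ± 0.39 (SE) over all libraries. It was -0.28 with replicates 3 to 5 alone and -0.34 with replicates 1 and 2 alone. The chamber-by-set interaction, for which 5.21% of all tested genes passed, was 0.06 ± 0.27, with a 95% interval from -0.55 to 0.66 (adjusted p = 0.935).

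What set Prdm2 apart between libraries was the replicate set. It averaged 579.0 ± 69.6 in replicates 3 to 5 (SD, n = 6) and 251.6 ± 65.5 in replicates 1 and 2 (SD, n = 4), and the sets did not overlap. In limma with chamber in the fit, Prdm2 rose by 1.23 ± 0.13 on the log2 scale in replicates 3 to 5 (adjusted p = 1.67e-05). That contrast called 52.7% of all tested genes, with 28.6% of all tested genes higher in replicates 3 to 5, so such a call was common. Prdm2 (ENSMUSG00000057637) lies on the same chromosome as Prdm16, at 143107391 to 143212995 on the minus strand.

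Prdm4, Prdm10 and Prdm15 had about equal means in the 2 chambers. Prdm4, a zinc-finger factor that binds the p75 neurotrophin receptor and recruits the arginine methyltransferase PRMT5, had 171.0, 218.8, 185.8, 196.3 and 220.1 normalized reads in atrial replicates 1 to 5, against 238.7, 224.2, 176.0, 180.4 and 191.5 in ventricular replicates 1 to 5. Means were 198.4 ± 21.2 in atrial and 202.2 ± 27.8 in ventricular cells, and the log2 difference was -0.02 ± 0.13 (SE). Its sign differed between the sets, at 0.13 in replicates 3 to 5 and -0.26 in replicates 1 and 2. The chambers did not overlap in replicates 1 and 2, but with 2 libraries a chamber this often arises by chance. The interaction that compares the sets was 0.39 ± 0.19, with an interval from -0.02 to 0.8, and missed the threshold (adjusted p = 0.274).

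Prdm10, a zinc-finger transcription factor needed in the early embryo, had 78.6, 40.3, 78.4, 79.0 and 62.4 normalized reads in atrial replicates 1 to 5, against 72.7, 39.0, 82.4, 71.5 and 84.6 in ventricular replicates 1 to 5. Replicate 2 was the lowest library of both chambers. Means were 67.8 ± 16.9 in atrial and 70.0 ± 18.3 in ventricular cells, a log2 difference of -0.04 ± 0.26. A lincRNA on the opposite strand, 4930517E14Rik, shares 129 of its exon bases and was not analysed here. Prdm15, a transcription factor described in pluripotent cells as a regulator of WNT and MAPK signalling, had 34.5, 44.6, 41.5, 51.3 and 47.0 normalized reads in atrial replicates 1 to 5, against 27.7, 51.2, 36.6, 39.4 and 47.6 in ventricular replicates 1 to 5. Its means were 43.8 ± 6.31 in atrial and 40.5 ± 9.29 in ventricular cells, a log2 difference of 0.13 ± 0.20, and it rested on 8 to 87 reads a library. Both genes overlapped between chambers within each replicate set.

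Neither the replicate set nor its interaction with chamber passed the threshold for these 3 genes over all libraries with the deposited scaling. The log2 difference of replicates 3 to 5 from replicates 1 and 2 was -0.15 ± 0.11 for Prdm4 (interval -0.39 to 0.1, adjusted p = 0.288), 0.47 ± 0.21 for Prdm10 (interval -0.0 to 0.93, adjusted p = 0.0872) and 0.18 ± 0.19 for Prdm15 (interval -0.24 to 0.6, adjusted p = 0.461). The interaction was -0.20 ± 0.44 for Prdm10 (interval -1.17 to 0.77, adjusted p = 0.854) and 0.12 ± 0.38 for Prdm15 (interval -0.73 to 0.97, adjusted p = 0.905). The set difference did pass for Prdm4 without atrial replicate 1 (-0.26, adjusted p = 0.0355) or with libraries scaled to equal totals (-0.46, adjusted p = 0.00692). For Prdm10 it passed without atrial replicate 1 (0.67, adjusted p = 0.0141), without ventricular replicate 1 (0.61, adjusted p = 0.0368) or with totals that leave out ribosomal RNA (0.63, adjusted p = 0.0196). Prdm4 (ENSMUSG00000035529) lies on chromosome 10, 85891966 to 85917142 (minus), Prdm10 (ENSMUSG00000042496) on chromosome 9, 31280538 to 31381723 (plus), and Prdm15 (ENSMUSG00000014039) on chromosome 16, 97791467 to 97851850 (minus).

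Levels were set against each other per kb of exon, the sum of a gene's non-overlapping annotated exon bases. In atrial cells the order of the means was Prdm2 (54.3 ± 22.7 normalized reads per kb), Prdm4 (40.4 ± 4.32), Prdm10 (7.32 ± 1.82), Prdm15 (3.86 ± 0.556) and Prdm16 (0.55 ± 0.953). In ventricular cells it was Prdm2 (66.5 ± 27.0), Prdm4 (41.1 ± 5.66), Prdm16 (20.1 ± 2.75), Prdm10 (7.56 ± 1.98) and Prdm15 (3.57 ± 0.819). Prdm16 was thus the lowest of the 5 in atrial cells, below the range of Prdm15, and the 3rd in ventricular cells, with a range of 16.3 to 23.2 that touched neither Prdm4 (35.8 to 48.6) nor Prdm10 (4.21 to 9.14). Prdm2 and Prdm4, whose order is that of the means alone, overlapped in both chambers, and so did Prdm10 and Prdm15. Among the 15 family genes compared Prdm16 ranked 11th in atrial and 3rd in ventricular cells.

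**Figure D2:**
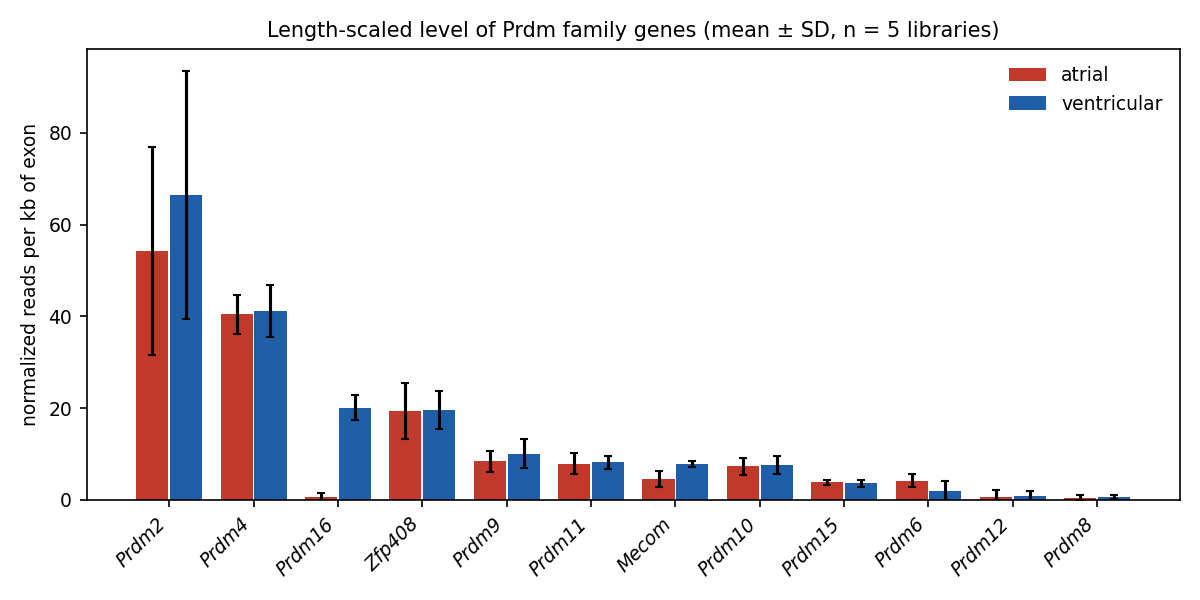
Normalized reads per kb of exon (y axis) for the 12 Prdm family genes compared whose atrial and ventricular means together exceed 1, as bars of the mean with SD over 5 atrial (red) and 5 ventricular (blue) libraries, ordered by the ventricular mean. Prdm16 has a bar of 0.55 in atrial and 20.1 in ventricular cells, while Prdm2, Prdm4, Prdm10 and Prdm15 have bars of similar height in both chambers.

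Of the 10 other family genes compared, 5 were tested and only Mecom was called, against 6.56% of all tested genes called higher in ventricular cells; the median log2 difference of the 5 was -0.09, against -0.01 for all genes. Mecom, the nearest relative of Prdm16, had 91.0, 63.3, 40.3, 33.6 and 54.1 normalized reads in atrial replicates 1 to 5, against 100.3, 104.8, 86.8, 90.9 and 101.3 in ventricular replicates 1 to 5. Only atrial replicate 1 reached into the ventricular range. Mecom averaged 56.5 ± 22.5 in atrial and 96.8 ± 7.63 in ventricular cells, 1.71-fold higher in ventricular cells, a log2 difference of -0.85 ± 0.24 (limma, adjusted p = 0.0386). The call held in 2 of 10 fits that leave out 1 library (adjusted p from 0.00574 to 0.0972), and edgeR gave 0.0511. Leaving out any of atrial replicates 3 to 5 or any ventricular library ended it. With the replicate number as a block the adjusted p was 0.008.

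Like Prdm16, Mecom had its largest atrial share in replicate 1. The 5 atrial libraries stood at 94.0, 65.4, 41.7, 34.7 and 55.8% of the ventricular mean for Mecom. Its log2 difference was -1.13 with replicates 3 to 5 and -0.43 with replicates 1 and 2 only, and the interaction, -0.70 ± 0.31, missed the threshold (adjusted p = 0.244). Mecom (ENSMUSG00000027684, chromosome 3, 29951296 to 30548008, minus) shares 81 exon bases with the antisense Mecomos, which was not analysed here.

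Prdm6, a repressor described in vascular smooth muscle, had the higher mean in atrial cells but was not called. It averaged 14.6 ± 4.61 in atrial and 6.54 ± 8.06 in ventricular cells, a log2 difference of 1.50 ± 0.57 (adjusted p = 0.117), with ventricular replicate 1 at 20.8 and the other 4 ventricular libraries at 1.24 to 4.87. Without ventricular replicate 1 the difference was 2.0 (adjusted p = 0.0064). Prdm9, the meiotic methyltransferase that places recombination sites, averaged 36.2 in atrial and 43.1 in ventricular cells (adjusted p = 0.738), Prdm11 134.0 and 139.5 (adjusted p = 0.873), and Zfp408 (PRDM17) 77.4 and 78.1 (adjusted p = 0.956). Prdm1, Prdm8, Prdm12, Prdm13 and Prdm14, known mainly from lymphoid, neural and germ cells, were under the mean of 10, and Prdm13 had no read in any library.

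The SET-domain methyltransferases, relatives of the PR domain, held 1 gene with a difference of the size of Prdm16. Of 28 genes 27 were tested, 0 were called higher in the atrium (8.12% of all tested genes) and 1 in the ventricle (6.56%), and the median log2 difference was 0.03. That gene was Smyd2, a lysine methyltransferase of histones and of p53, with 158.6, 146.8, 51.1, 44.2 and 54.1 normalized reads in atrial replicates 1 to 5, against 3380.3, 3760.9, 1822.4, 1672.6 and 1779.8 in ventricular replicates 1 to 5. It was 27.3-fold higher in ventricular cells, a log2 difference of -4.89 ± 0.41 (adjusted p = 2.35e-05). Smyd1, the striated-muscle member that the heart needs to form, averaged 2182.2 in atrial and 2695.4 in ventricular cells. Its groups did not overlap, but the adjusted p was 0.0868 (0.00541 with the replicate block). Nsd1 was level, at 1599.1 ± 55.6 in atrial and 1598.0 ± 33.2 in ventricular cells.

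Most partners of PRDM16 were not called. Of 23 genes 21 were tested, with 3 called higher in the atrium, 2 in the ventricle and 16 in neither (median -0.10), against 8.12% and 6.56% of all tested genes called for the atrium and the ventricle. Tbx5, a T-box factor of heart development, had 2038.5, 1534.4, 2186.4, 2317.3 and 2314.4 normalized reads in atrial replicates 1 to 5, against 155.7, 282.7, 186.5, 167.7 and 161.2 in ventricular replicates 1 to 5. It was 10.9-fold higher in atrial cells, a log2 difference of 3.46 ± 0.18 (adjusted p = 1.31e-06), opposite in sign to Prdm16. Zfp516, a zinc-finger partner in brown fat, was 1.59-fold higher in atrial cells (295.5 against 186.1 in ventricular cells, adjusted p = 0.00185). Skil, the SnoN corepressor of SMAD signalling, was 1.33-fold higher (540.0 against 406.7, adjusted p = 0.0274), a call lost without atrial replicate 2, 3 or 4 or ventricular replicate 3, 4 or 5 (adjusted p from 0.0536 to 0.0696).

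Ebf2, which marks brown-fat precursors and acts with PRDM16 there, had 16.6, 15.8, 10.2, 7.08 and 8.37 normalized reads in atrial replicates 1 to 5, against 34.6, 39.0, 97.9, 141.0 and 116.8 in ventricular replicates 1 to 5. The groups did not overlap, and the log2 difference was -2.64 ± 0.43 (adjusted p = 0.00195). It was -3.64 in replicates 3 to 5 and -1.13 in replicates 1 and 2 (adjusted p = 0.305), and limma's interaction between them passed (-2.51 ± 0.35, adjusted p = 0.00393). Ppargc1b, a coactivator of mitochondrial genes, averaged 339.7 in atrial and 711.8 in ventricular cells, 2.1-fold higher in ventricular cells (adjusted p = 0.000856). Its better known relative Ppargc1a did not differ beyond the spread, at 1153.0 ± 185.7 in atrial and 1136.0 ± 191.9 in ventricular cells (adjusted p = 0.962), and neither did the histone deacetylase Hdac2, at 952.7 ± 176.2 and 1007.3 ± 34.0 (adjusted p = 0.751). With the replicate block 5 partners were called for the atrium (16.3% of all genes) and 6 for the ventricle (16.0%).

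Genes of the brown-fat program, which PRDM16 is known to promote in fat, held 6 called genes. Of 16 genes 10 were tested, with 1 called higher in the atrium and 5 in the ventricle, against 8.12% and 6.56% of all tested genes, and with 1 and 1 in replicates 1 and 2 alone. Of the 10 estimates 8 lay below 0, and the median log2 difference was -0.68. Ebf2, given above, is among the 5 called for the ventricle. The 6 untested genes, Ucp1, Elovl3, Otop1, Lhx8, Zic1 and Pparg, had means of 0.276 to 5.01 normalized reads. Plin5, a protein that ties lipid droplets to mitochondria, had 17.9, 25.9, 23.9, 21.8 and 22.5 normalized reads in atrial replicates 1 to 5, against 114.2, 148.7, 207.0, 178.4 and 185.9 in ventricular replicates 1 to 5. It was 7.45-fold higher in ventricular cells (difference on the log2 scale -2.82 ± 0.19, adjusted p = 3.98e-06). Dio2, which makes active thyroid hormone, averaged 33.7 in atrial and 131.4 in ventricular cells (adjusted p = 0.00122). Cidea, a lipid-droplet fusion protein, averaged 63.7 in atrial and 183.8 in ventricular cells (adjusted p = 0.000866). Its log2 difference was -1.89 in replicates 3 to 5 and -0.85 in replicates 1 and 2 (adjusted p = 0.204), and limma's interaction passed (-1.04 ± 0.24, adjusted p = 0.0378).

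Cox8b, a cytochrome oxidase subunit of muscle and brown fat, averaged 212.0 in atrial and 308.2 in ventricular cells (adjusted p = 0.0414), a call lost without any one of atrial replicates 3 to 5 or of the 5 ventricular libraries (adjusted p from 0.0592 to 0.106). Kcnk3, the TASK-1 potassium channel, was the member higher in atrial cells, at 896.4 against 472.0 in ventricular cells (adjusted p = 0.0169). Cox7a1 was not called (269.0 in atrial and 431.6 in ventricular cells, adjusted p = 0.282), but was with the replicate block (adjusted p = 0.00446). That block called 1 gene of the list for the atrium and 7 for the ventricle, against 16.3% and 16.0% of all tested genes. Markers of fat cells were low. Ucp1, the uncoupling protein of brown fat, reached 2.76 at most in atrial libraries and 0 in ventricular ones. The summed level of 5 adipocyte markers was 0 to 29.0 in atrial and 0 to 31.1 in ventricular libraries, above 1.24 only in replicate 1 of each chamber.

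Layer genes of the ventricular wall were also compared, since PRDM16 is known for its part in the compact layer. Of 3 compact-layer genes, 0 were called for the atrium (8.12% of all tested genes) and 2 for the ventricle (6.56%): Hey2 with means of 18.2 in atrial and 797.1 in ventricular cells (difference -5.45 ± 0.25, adjusted p = 5.19e-07), and the cyclin Ccnd1, at 49.5 and 312.7 (-2.47 ± 0.42, adjusted p = 0.00257). The difference of Ccnd1 was -3.43 in replicates 3 to 5 and -1.02 in replicates 1 and 2 (adjusted p = 0.148), and the interaction between them passed (-2.41 ± 0.29, adjusted p = 0.00231). Mycn was not called, at 30.0 in atrial and 45.1 in ventricular cells (adjusted p = 0.189). Of 10 genes used as markers of the trabecular layer, read against the same shares, 4 were called higher in atrial cells (Bmp10 with a log2 difference of 6.26, Nppa with 4.57, Gja5 with 4.44 and Cpne5 with 2.72) and 1, Irx3, higher in ventricular cells. The median was -2.47 for the compact and 0.76 for the trabecular genes. Several of the 4, such as Nppa and Bmp10, are known as atrial genes in their own right. Irx3, a homeobox factor of the fast conduction system, was 47.0-fold higher in ventricular cells (adjusted p = 6.42e-05).

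**Figure D3:**
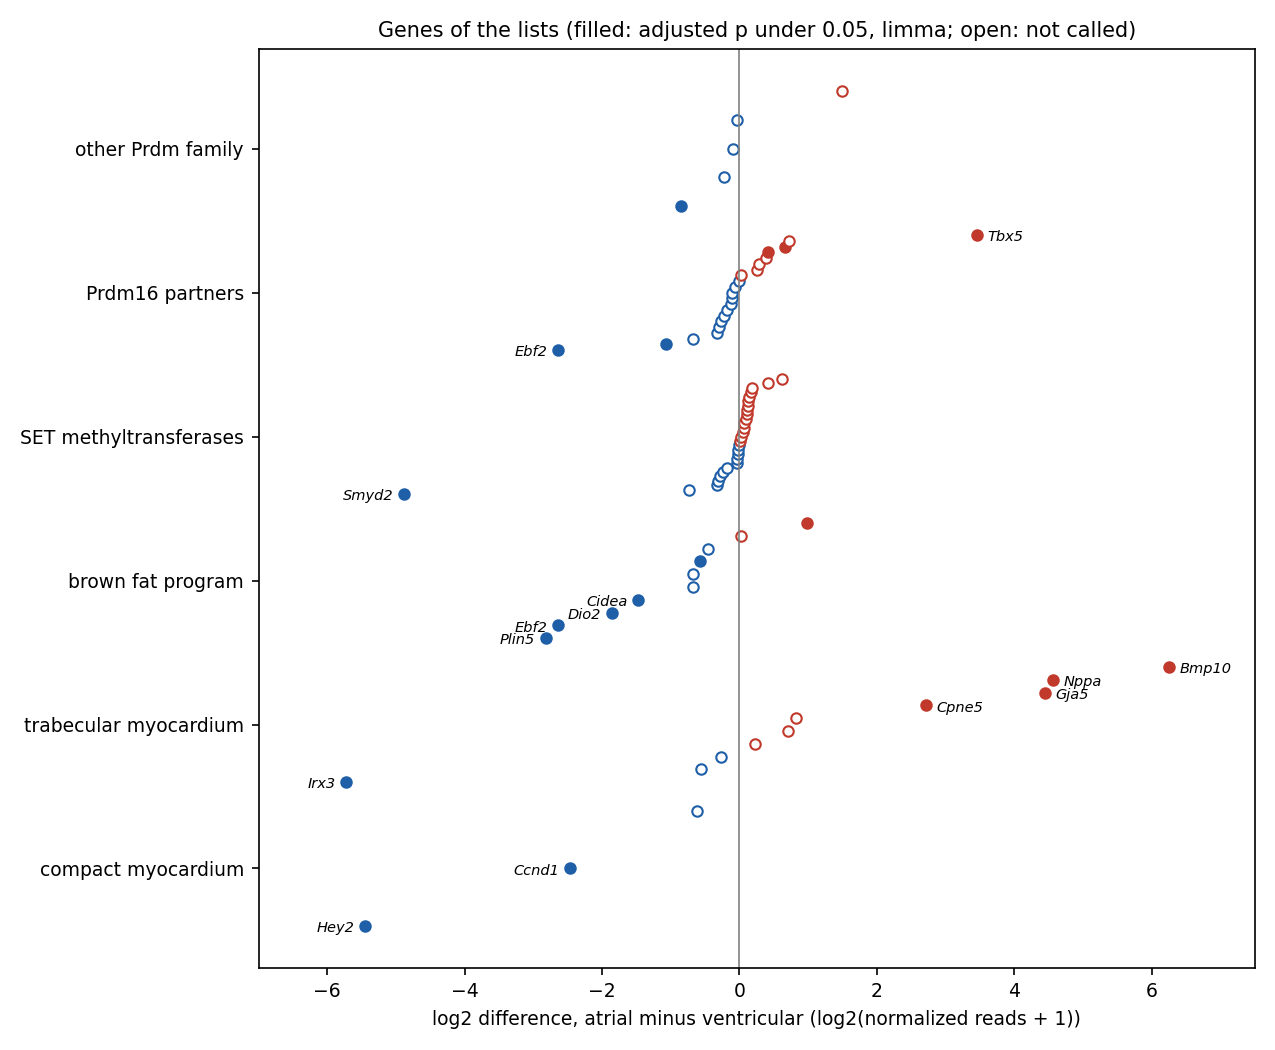
Log2 difference of each tested gene of 6 lists (x axis, atrial minus ventricular, on log2(normalized reads + 1)), spread down each row for legibility; red lies above 0 and blue below it, and filled points passed limma at an adjusted p of 0.05. Tbx5 stands at 3.46 and Ebf2 at -2.64 among the partners, Smyd2 at -4.89 among 27 methyltransferases that otherwise lie between -0.73 and 0.62, and the called brown-fat genes lie below 0 apart from Kcnk3.

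The genes whose pattern over the 10 libraries was most like Prdm16 were, by Pearson's r on the log2 scale, Cspg4 (0.99), Acan (0.985), Irx4 (0.983), Irx3 (0.981), Nkd2 (0.977), Ankrd23 (0.975), Ddc (0.973) and Lrrc15 (0.972). These r values describe 10 libraries that fall into 2 chambers, and other genes higher in the ventricle, such as Smyd2 at 0.967 and Mecom at 0.93, also came out high. Cspg4 (NG2), a proteoglycan known from pericytes, had 118.6, 97.9, 51.1, 67.8 and 61.8 normalized reads in atrial replicates 1 to 5, against 249.1, 241.3, 240.4, 238.6 and 232.3 in ventricular replicates 1 to 5. Its 2 highest atrial libraries were replicates 1 and 2, as for Prdm16, and its ventricular libraries spanned a narrow range. Acan, a cartilage-type proteoglycan, averaged 5.8 in atrial and 93.2 in ventricular cells, Nkd2, a WNT antagonist, 7.85 and 145.6, and Ddc, the aromatic amino acid decarboxylase and an imprinted heart gene, 31.9 and 959.3.

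**Figure D4:**
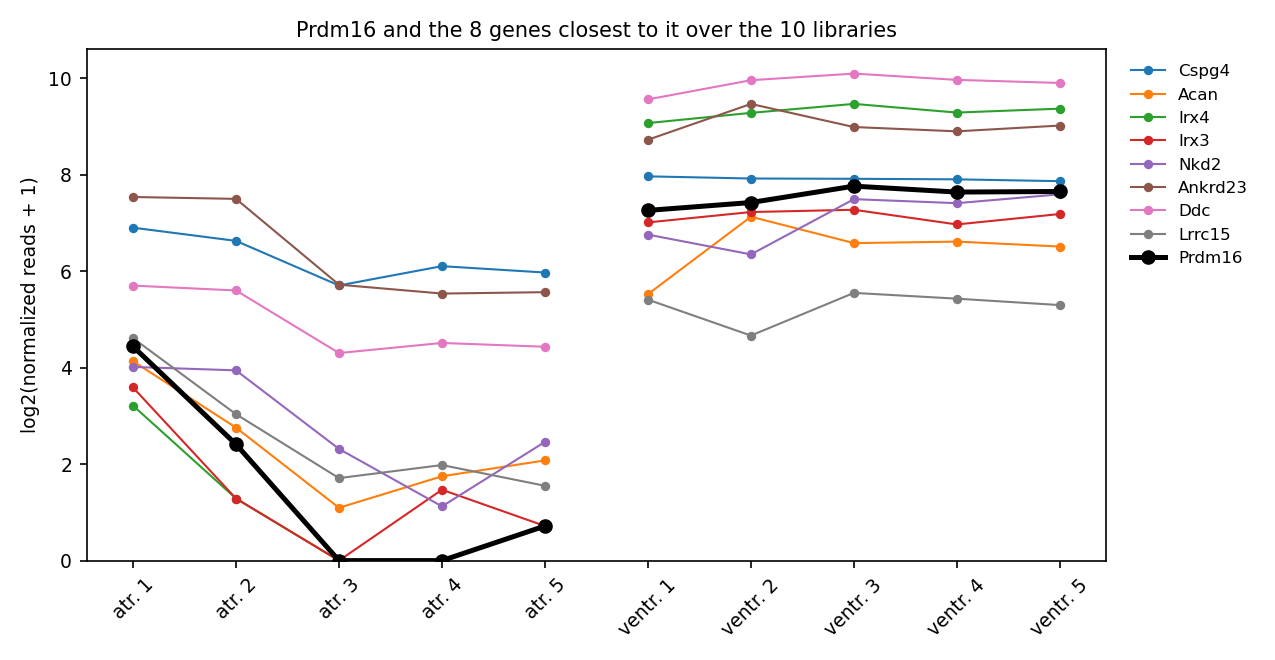
Log2(normalized reads + 1) of Prdm16 (thick black) and of the 8 genes with the highest Pearson's r with it (y axis) in the 5 atrial and 5 ventricular libraries (x axis); lines join the points of a gene and imply no order of the replicates. All 9 genes are higher in every ventricular than in every atrial library, and Prdm16 reaches 0 in atrial replicates 3 and 4.

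Markers of other cell types also moved with the chamber, where 8.12% of all tested genes were called for the atrium and 6.56% for the ventricle. Summed smooth-muscle and pericyte markers were 1804.3 to 6613.4 in atrial and 9317.3 to 15557.9 in ventricular libraries, without overlap. Myh11 (log2 difference -5.33) and Acta2 (-2.87) were called higher in ventricular cells and the other 6 of 8 were not called. The sums leaned on Acta2, which averaged 1592.7 in atrial and 8128.7 in ventricular cells, while Tagln and Rgs5 overlapped between chambers. Of the 8 estimates 6 lay below 0. Replicates 1 and 2 alone called 2 of the 8 for each chamber, against 5.14% of all tested genes in either direction. Of 8 fibroblast markers 2 were called higher in ventricular cells (Pdgfra and Lum, the Lum call being lost without any one atrial library or ventricular replicate 3, 4 or 5), with sums that depended on the set. In replicates 3 to 5 they were 34320.1 to 36361.1 in atrial and 48548.3 to 63473.5 in ventricular libraries, with 7 of the 8 called for the ventricle. Calls were common there, at 52.8% of all tested genes in either direction (6561 genes, 3254 of them for the atrium). In replicates 1 and 2 the fibroblast sums were 21311.9 and 28679.0 in atrial and 9165.2 and 20067.0 in ventricular libraries. There 0 were called, against 5.14% of all tested genes in either direction. Epicardial markers went the other way, with 5 of 7 called higher in atrial cells (Krt19, Msln, Upk1b, Upk3b, Wt1) and sums of 2748.8 to 6663.1 in atrial and 747.3 to 2744.5 in ventricular libraries. Of 10 endothelial markers Kdr and Tek were called higher in atrial cells (sums 917.5 to 3999.8 in atrial and 404.6 to 1961.7 in ventricular libraries). The list was split, with 5 of the 10 estimates below 0 and a median of 0.13. In replicates 3 to 5 alone 2 endothelial markers were called for the atrium and 5 for the ventricle, against 52.8% of all tested genes in either direction. The Kdr call was lost without atrial replicate 1, 3, 4 or 5 or ventricular replicate 2, 3, 4 or 5, the Tek call without atrial replicate 1, 3, 4 or 5 or ventricular replicate 1 or 3, and the Wt1 call without atrial replicate 3, 4 or 5 (adjusted p from 0.0502 to 0.0867). Of 7 macrophage markers 2 were tested and Csf1r was higher in atrial cells (sums 83.0 to 144.8 and 22.3 to 128.0), and of 7 neural markers 1 was tested and none called (39.9 to 96.5 and 30.1 to 63.4). None of the 6 cardiomyocyte markers was called (286566.7 to 770971.9 and 291570.6 to 632339.5). With the replicate block 2 were called for the ventricle, against 16.0% of all tested genes. No gene of these marker lists was at 0 in all libraries. Their part in the difference of Prdm16 or of the genes listed with it was not tested.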

How the data were processed

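RNA was extracted with Trizol, cleaned on Zymo columns and made into libraries from total RNA with ScriptSeq v2, per the labels' protocols. Reads were trimmed, aligned and counted with Trimmomatic, HISAT2 and featureCounts on GRCm38 (mm10), per the submitters' processing notes; no version, annotation or strand setting is given in the sources used here. Per the file headers, the authors deposited a signal per gene, the read count over a DESeq2 size factor. Dividing by the smallest step of each library gave whole reads within 0.01 for 100% of values.

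Genes whose mean reached 10 normalized reads were tested with limma 3.58.1 in R 4.3.3 (two-sided moderated test, trend and robust) on log2(value + 1), Benjamini-Hochberg adjusted over 12422 genes at 0.05. Folds are ratios of means, and log2 differences understate low genes. edgeR 4.0.16 and DESeq2 1.42.0 were run on the recovered reads as alternatives: edgeR called 1984 genes. Same-numbered libraries deviated together from their chamber means (correlations 0.556 to 0.637). Libraries with different numbers in the same set were not compared, and the sets differed widely. These correlations thus cannot show that the numbers pair the libraries. The replicate block, which treats them as paired, was run as an alternative. GENCODE M21 matched 24321 of 25239 symbols; of the 5 genes, 4 had a RefSeq promoter entry.

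The 5 genes and all lists were chosen with earlier results of these data known. Named genes were the 5, the other family genes (1 of them is not reported here), the antisense gene of Prdm16, up to 6 called and 2 uncalled genes a list, and the 8 most like Prdm16.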

Additional observations from a re-analysis of the deposited data

Results flagged for a closer look

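Single libraries stood apart from the other 4 of their chamber by Dixon's test at 95%. For normally spread values chance alone gives this in about 1 group in 20. That rate need not hold for values that rest on few reads, and the number of groups tried is not given. Prdm16 had 20.7 normalized reads in atrial replicate 1, the highest atrial library, against 0 to 4.32 in the other 4. Prdm10 had 39.0 in ventricular replicate 2, the lowest ventricular library, on 16 reads. Prdm6 had 20.8, Prdm1 10.4 and Prdm8 6.92 in ventricular replicate 1, the shallowest library, on 6, 3 and 2 reads. Prdm1 and Prdm8 were also highest in replicate 1 of the atrial libraries, at 8.28 and 6.9, as was Prdm12, at 8.28 in atrial and 6.92 in ventricular replicate 1. Replicate 1 of each chamber had reads on more genes than any later replicate (21576 in atrial and 19232 in ventricular). The part of this in the values of single genes was not tested.

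The change in the chamber difference of Prdm16, replicates 3 to 5 minus replicates 1 and 2, was -3.53 on the log2 scale. It passed limma's interaction test over all libraries (adjusted p = 0.0192), but not without atrial replicate 3 or 4 or ventricular replicate 3, 4 or 5 (adjusted p from 0.0538 to 0.0662). Prdm16 was chosen on its chamber values and atrial replicates 3 to 5 held 1 read, so this p is no independent support for a difference between the sets.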

How the results depend on the processing

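The chamber differences of the 5 genes kept their direction where one was clear: Prdm16 moved to -4.57 with a pseudocount of 5, to -7.45 in replicates 3 to 5 alone and to -3.92 in replicates 1 and 2 alone, and Prdm4 to -0.26 in replicates 1 and 2. Leaving out single libraries gave interactions of -4.54 to -2.52 for Prdm16, -0.31 to 0.42 for Prdm2, -0.67 to 0.27 for Prdm10 and -0.31 to 0.55 for Prdm15, and set differences of -1.86 to -0.62 for Prdm16, -0.26 to -0.08 for Prdm4 and 0.27 to 0.67 for Prdm10. Equal library totals gave set differences of -1.69 for Prdm16, -0.46 for Prdm4 and -0.13 for Prdm15, and totals without ribosomal RNA 0.02 for Prdm4 and 0.63 for Prdm10; these scalings moved the median set difference of all genes to -0.27 and 0.2, against 0.04, by construction. With equal totals the chamber calls split into 1014 for the atrium and 539 for the ventricle, against 1009 and 815.

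Genes called between chambers numbered 3955 with the set as a term, 6561 in replicates 3 to 5 and 638 in replicates 1 and 2. With the replicate block, 4017 genes were called, with 11 partners, 5 SET genes and 8 trabecular genes; among the 67 named genes with a test, the block ended 0 calls and added 5 (Smyd1, Cox7a1, Nppb, Fabp4 and Rgs5). With the set term the counts were 13, 5 and 8, with 2 other family genes; in replicates 3 to 5 they were 14, 9 and 10, with 2. In replicates 1 and 2 they were 1 partner, 2 brown-fat genes, 1 compact gene and 0 family genes. DESeq2 called 8 partners and 3 SET genes, and equal totals 2 SET and 0 family genes. The family count was also 0 by edgeR and without the filter. Leaving out 1 library gave 0 to 1 family and 1 to 2 SET genes. The cause of these shifts was not tested.

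Near 0, signs turned. Zfp408 was 0.01 by DESeq2 and by edgeR, 0.03 with equal totals, 0.02 with totals without ribosomal RNA, 0.06 in replicates 1 and 2 and -0.20 to 0.07 without single libraries. Prdm11 was 0.06 in replicates 3 to 5 and -0.20 to 0.03 without single libraries. Of 43 called named genes, 36 kept the call without any 1 library and 19 were not called in replicates 1 and 2 alone, the pair with the fewest reads. Prdm15 fell under a filter at a mean of 50. By the limit of 3 reads, a 0 allows up to 10.38 normalized reads in the shallowest library.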

Other observations

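Among the other tested family genes, several differed between the library sets in the fit with chamber, where 28.6% of all tested genes were higher and 24.1% lower in replicates 3 to 5. Prdm11 was higher in replicates 3 to 5, at 158.5 normalized reads against 104.1 in replicates 1 and 2 (limma, adjusted p = 0.000632), and so was Prdm9, at 46.8 against 29.0 (adjusted p = 0.0145). Zfp408 was lower, at 64.9 against 97.1 (adjusted p = 0.00435), and so was Mecom, at 67.8 against 89.9 (adjusted p = 0.0435). The antisense gene 4631405J19Rik, which lies over Prdm11, had a mean of 23.061 normalized reads over the 10 libraries.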
